A study of Drosophila melanogaster with 34 samples.

Results

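The cytosolic glutathione *S*-transferases (GSTs) of *Drosophila melanogaster* were followed across 6 strains with and without copper. The 36 genes of the family were taken by name from the merged gene count table, and all 36 were found among 16495 genes. They comprise 11 genes of the Delta class (*GstD*), 14 of the Epsilon class (*GstE*), 4 of the Omega class (*GstO1* to *GstO3* and *se*), 4 of the Theta class (*GstT*), 2 of the Zeta class (*GstZ*) and *GstS1*, the single Sigma gene.

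Whole-body RNA came from mated females of wild-derived European strains, inbred for 20 generations and chosen from the ends of a distribution of survival on copper. GIM-012, MUN-008 and MUN-020 are the copper-tolerant strains, and AKA-018, COR-018 and JUT-008 the copper-sensitive strains. Copper-treated females were kept for 24 h with 20 mM CuSO4 in 5% sucrose, and control females were kept under the same conditions without CuSO4. The series design gives an age of 3 to 7 days. Each library came from 20 females, and there were 3 libraries per strain and treatment, except for the controls of MUN-020 and AKA-018, of which there were 2 each, giving 18 copper and 16 control libraries. In COR-018 and JUT-008 dead females were discarded before extraction, so their libraries hold survivors only. A strain stands here for 1 inbred genotype, and a class for 3 of them.

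GSTs join the tripeptide glutathione to electrophilic compounds, which makes these more soluble and ready for export, and many also reduce organic peroxides. In insects the Delta and Epsilon classes are expanded and are known for the metabolism of insecticides and of products of lipid peroxidation, whereas the Zeta class serves tyrosine breakdown and the Omega class reduces dehydroascorbate and other oxidised substrates. In flies the transcription factor cap-n-collar (*cnc*), held back by *Keap1*, activates many GST genes under oxidative stress, and *GstD1* is the usual reporter of that pathway.

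Most of the family sits in tandem arrays (dm6, Ensembl annotation). The 11 Delta genes lie within 20.8 kb of chromosome arm 3R, from 12364776 to 12385624, with 1 other protein-coding gene among them. *GstE10* and *GstE1* to *GstE9* lie within 13.2 kb of 2R, from 18396638 to 18409835, and the 4 Omega genes within 5.98 kb of 3L, from 8518885 to 8524866. *GstZ1* and *GstZ2* are neighbours on 3R, and *GstT1* and *GstT2* on 2R. *GstE11*, *GstE12*, *GstE13*, *GstE14* and *GstS1* stand alone on 2R, and *GstT3* and *GstT4* on the X chromosome. Close copies can share reads. The authors discarded reads that mapped to several places, so the level of a gene with a near-identical stretch in a neighbour is uncertain.

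The libraries held 22796637 to 42567920 counted reads. The female samples were checked against markers of tissues and of males. In tolerant strains summed midgut markers (5 of 6 counted) were between 2114 and 3944 CPM (counts scaled to library size after TMM normalisation) in copper and between 1969 and 6323 CPM in control libraries. In sensitive strains they were between 529 and 2607 CPM in copper libraries, with a median of 749.5, against 905 to 6417 CPM in controls, with a median of 2193. Summed eggshell markers (4 of 4) had a median of 321 CPM in copper and 618 CPM in control libraries of tolerant strains, and of 136 CPM in copper and 938 CPM in control libraries of sensitive strains. Of 8 male transcripts listed 3 were counted. The sum of the 3 was at most 0.13 CPM in tolerant strains and over 1 CPM in 9 libraries of sensitive strains, 4 copper and 5 control libraries. These 9 libraries hold both AKA-018 controls, while the 3 AKA-018 copper libraries were at 0 to 0.0945 CPM. In whole bodies, fewer cells of a type and less RNA per cell cannot be told apart.

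The family was dominated by *GstD1*, which dehydrochlorinates DDT and reduces lipid hydroperoxides. Per length, *GstD1* was at 825 ± 194 RPKM (CPM per kb of merged exon) in copper libraries and 761 ± 111 RPKM in control libraries (SD, n = 18 and 16). It made up between 21.9% and 41.7% of the family's summed CPM over the 34 libraries. *GstE12*, *GstE6*, *GstT4* and *GstE1* followed, with control means of 173, 158, 110 and 101 RPKM. At the other end, *GstD11*, *GstD4* and *GstD6* were each below 1 RPKM in controls. Of the 35 pairs of neighbours in the order of control levels, 33 had ranges of mean ± SD that overlapped, and the exceptions were *GstD1* above *GstE12* and *GstD7* above *GstD11*. *GstS1*, which in flies is abundant in flight muscle and conjugates the peroxidation product 4-hydroxynonenal, was at 54.6 ± 7.44 RPKM in copper and 56.0 ± 8.06 RPKM in control libraries.

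**Figure D1:**
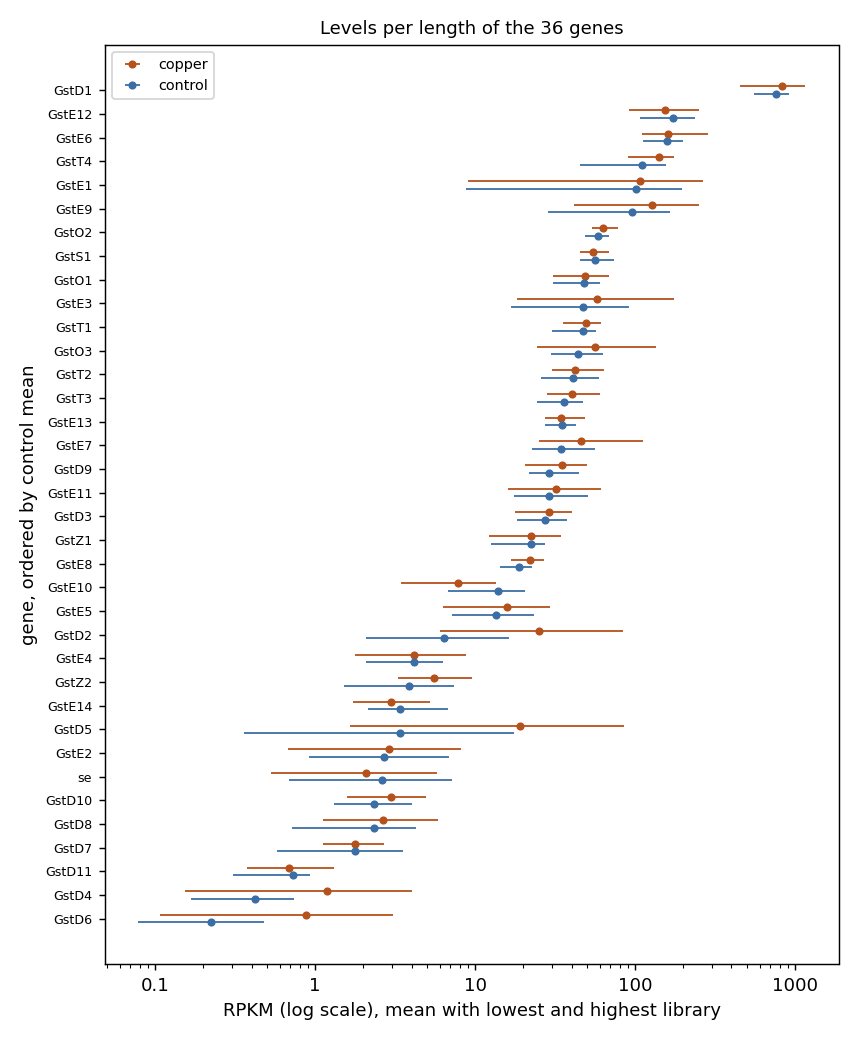
Levels per length of the 36 genes, as RPKM on a log axis, with genes from the highest to the lowest control mean. Points are means over the 18 copper and 16 control libraries, and lines run from the lowest to the highest library. *GstD1* lies above all others at 825 RPKM in copper and 761 RPKM in control libraries, and the copper and control means of *GstD2*, *GstD4*, *GstD5* and *GstD6* are the furthest apart.

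The first question was which of these genes changed with copper in a joint fit of the strains. In a model of all 34 libraries, 5 of the 36 genes were differentially expressed (Benjamini-Hochberg adjusted p-value below 0.05 in edgeR's quasi-likelihood test, and a fold change over 1.5), against 4.36% of the 12511 genes tested. *GstD2*, *GstD4*, *GstD5* and *GstD6* rose, where 1.72% of all genes rose, and *GstE10* fell, where 2.65% of all genes fell. The median log2 fold change was 0.11 over the 36 genes and -0.01 over all genes. A further 6 genes, *GstE7*, *GstE8*, *GstE9*, *GstT3*, *GstT4* and *GstZ2*, had an adjusted p-value below 0.05 with a smaller fold change, all 6 upwards, with log2 fold changes between 0.19 (*GstT3*) and 0.50 (*GstZ2*). The share of all genes that pass on the adjusted p-value alone was not counted, so these 6 cannot be set against it. *GstD1*, at 0.14 ± 0.06 (log2 fold change ± SE), did not pass (adjusted p = 0.125).

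Of the 11 Delta genes, the 4 that rose lie side by side in the array with *GstD3* between *GstD2* and *GstD4*. *GstD2* (FBgn0010038), whose product conjugates isothiocyanates, was at 4.44 to 25.0 CPM (median 11.2) in copper libraries of tolerant strains, against 2.92 to 11.9 CPM (median 4.21) in their controls. In sensitive strains it was at 4.65 to 61.2 CPM (median 23.0) in copper and 1.53 to 7.43 CPM (median 3.99) in control libraries. The ranges overlap in both classes, but within strains every copper library lay above every control in GIM-012, AKA-018, COR-018 and JUT-008. The log2 fold change was 1.69 ± 0.30 over all strains (adjusted p = 0.00015, edgeR). *GstD3* had 13.2 to 30.1 CPM in copper and 13.5 to 28.0 CPM in control libraries, and a log2 fold change of 0.10 ± 0.05 (adjusted p = 0.226).

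*GstD5* (FBgn0010041) had the largest log2 fold change of the 36 genes over all strains. The tolerant strains had 1.66 to 19.5 CPM (median 3.93) in copper and 0.300 to 14.8 CPM (median 1.70) in control libraries. Copper libraries of sensitive strains had 1.38 to 71.4 CPM (median 19.5), against 0.562 to 4.17 CPM (median 2.10) in their controls. Of all controls the highest, at 14.8 CPM, came from MUN-020 control 1, while the other control of that strain had 4.21 CPM. Copper libraries lay above all controls in AKA-018 and COR-018, and the libraries of the other strains overlapped. The log2 fold change was 2.01 ± 0.37 over all strains (adjusted p = 0.000267, edgeR).

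*GstD4* (FBgn0010040) and *GstD6* (FBgn0010042) were scarce, with 4 to 17 and 2 to 12 reads per control library. *GstD4* had 0.111 to 1.22 CPM (median 0.506) in copper and 0.122 to 0.329 CPM (median 0.248) in control libraries of tolerant strains, and 0.480 to 2.93 CPM (median 0.663) in copper and 0.178 to 0.531 CPM (median 0.360) in control libraries of sensitive strains. Its copper libraries lay above the controls in 4 strains, GIM-012, MUN-008, AKA-018 and COR-018, and its log2 fold change was 1.33 ± 0.22 (adjusted p = 6.89e-05). *GstD6* had 0.0832 to 0.444 CPM (median 0.179) in copper and 0.0611 to 0.262 CPM (median 0.152) in control libraries of tolerant strains. In sensitive strains it had 0.270 to 2.40 CPM (median 0.985) in copper and 0.128 to 0.375 CPM (median 0.171) in control libraries. Its copper libraries lay above the controls in AKA-018 and COR-018 alone, and the log2 fold change over all strains was 1.47 ± 0.36 (adjusted p = 0.00497). Without the 9 libraries that held male transcripts, the log2 fold change of *GstD6* was 0.65. That fit holds no AKA-018 control. Of the COR-018 copper libraries it keeps copper 4, at 0.664 CPM of *GstD6*, and lacks copper 1 and copper 3, at 2.07 and 2.40 CPM. Male content and the loss of these libraries cannot be told apart in it. The log2 fold changes of *GstD2*, *GstD4*, *GstD5* and *GstE10* in the same fit were 1.33, 1.26, 1.49 and -0.69.

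**Figure D2:**
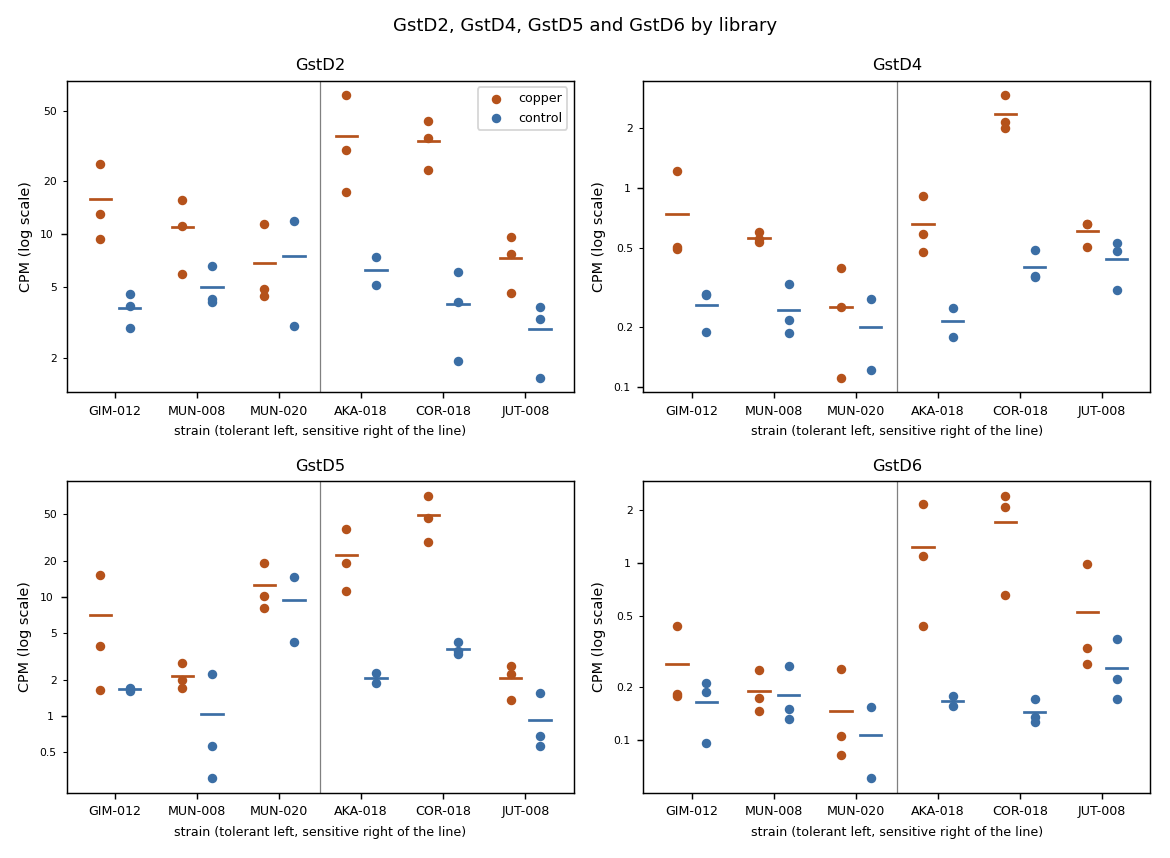
CPM of *GstD2*, *GstD4*, *GstD5* and *GstD6* in each library on a log axis, for copper (left of each pair) and control (right), with a bar at each mean and a line between tolerant and sensitive strains. In COR-018 the copper libraries of all 4 genes lie above the controls, with 23.0 to 43.5 CPM against 1.92 to 6.09 CPM for *GstD2*, and in MUN-020 the libraries of all 4 overlap.

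*GstE10* (FBgn0063499), an Epsilon gene at the edge of the 2R array, was the single gene of the family that fell over all strains. It had 3.88 to 12.3 CPM (median 8.48) in copper and 7.66 to 23.1 CPM (median 10.8) in control libraries of tolerant strains, and 5.56 to 15.4 CPM (median 8.23) in copper and 11.03 to 23.4 CPM (median 18.2) in control libraries of sensitive strains. In 5 of 6 strains every copper library lay below every control, the exception being GIM-012, with 11.6, 8.48 and 7.92 CPM in copper and 8.83, 10.3 and 7.66 CPM in control libraries. The log2 fold change was -0.84 ± 0.12 (adjusted p = 8.73e-06, edgeR). Summed midgut markers and summed eggshell markers both moved alongside in these strains. Each sum was lower in every copper library than in every control of the same strain in the 5 strains where *GstE10* was lower. In GIM-012 both overlapped, with 2221 to 3546 CPM of midgut markers in copper and 1969 to 2976 CPM in control libraries, and 104 to 255 CPM of eggshell markers in copper and 161 to 245 CPM in control libraries. The part of these tissues in the change of *GstE10* was not tested. *GstE1*, which overlaps *GstE10* on the opposite strand, had a log2 fold change of -0.03 ± 0.06 (adjusted p = 0.768), and reads were counted by strand.

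Several Epsilon and Theta genes passed on the adjusted p-value with changes under the fold threshold. *GstE7* had a log2 fold change of 0.33 ± 0.08 over all strains (adjusted p = 0.00356, edgeR), and *GstE8*, its neighbour, of 0.23 ± 0.05 (adjusted p = 0.00234). For *GstE7* every copper library lay above every control in GIM-012 and in the 3 sensitive strains, with 47.6, 52.5 and 85.1 CPM in copper and 42.7 and 39.2 CPM in control libraries of AKA-018. *GstE8* showed the same order in those 4 strains, and in MUN-008 it had 25.4, 27.2 and 25.1 CPM in copper and 25.4, 25.3 and 24.5 CPM in control libraries, which overlap. *GstT4* had a log2 fold change of 0.40 ± 0.09 (adjusted p = 0.00199), with copper libraries above controls in GIM-012, MUN-020, COR-018 and JUT-008. *GstE9* had 0.38 ± 0.10 (adjusted p = 0.00595), with copper libraries above controls in 1 strain, GIM-012, and overlapping in the other 5.

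The 5 calls over all strains held in each of 34 fits that left out 1 library. When counts were summed to 1 value per strain and treatment, none of the 36 genes passed (edgeR), 11 had an unadjusted p-value below 0.05, and 28 genes of the whole table passed. How many of all genes had an unadjusted p-value below 0.05 was not counted.

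The classes were then fitted apart. In sensitive strains 7 of 36 genes were differentially expressed, against 7.75% of the 12308 genes tested. 5 rose, where 1.81% of all genes rose, and 2 fell, where 5.94% of all genes fell. *GstD5* (2.92 ± 0.42, adjusted p = 0.000198), *GstD6* (2.45 ± 0.50, adjusted p = 0.00262), *GstD2* (2.33 ± 0.36, adjusted p = 0.000341) and *GstD4* (1.55 ± 0.31, adjusted p = 0.00242) had the largest log2 fold changes. *GstE10* fell by 1.06 ± 0.14 on the log2 scale (adjusted p = 8.98e-05). Without the 9 libraries with male transcripts, which leaves AKA-018 with no control, 2 genes passed in sensitive strains, *GstD5* and *GstT4*, and the log2 fold changes of the other 3 Delta genes were between 1.23 (*GstD6*) and 2.22 (*GstD2*). Without COR-018, 4 genes passed, *GstD2*, *GstD5*, *GstE10* and *GstZ2*.

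*GstZ2* (FBgn0037697), a Zeta gene of the maleylacetoacetate isomerase type, had 10.04 to 16.6 CPM (median 12.3) in copper and 6.09 to 17.2 CPM (median 8.40) in control libraries of tolerant strains, against 7.63 to 22.3 CPM (median 10.6) in copper and 3.53 to 15.4 CPM (median 7.11) in control libraries of sensitive strains. The class ranges overlap, and the copper libraries were above all controls in 4 strains, GIM-012, MUN-008, AKA-018 and JUT-008. In sensitive strains it rose by 0.59 ± 0.17 (log2, adjusted p = 0.0222), just past the fold threshold, and the call was lost in 8 of 17 fits that left out 1 library. The other Zeta gene, *GstZ1*, had a log2 fold change of -0.09 in sensitive strains.

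*se* (sepia, FBgn0086348) is the Omega transferase that makes the precursor of the red eye pigments. In tolerant strains it had 1.178 to 4.75 CPM (median 1.61) in copper and 1.43 to 3.18 CPM (median 1.99) in control libraries. In GIM-012 it was higher in every copper library than in every control, by 0.69 ± 0.28 (log2, adjusted p = 0.0669, edgeR). In MUN-008 and MUN-020 it overlapped between treatments, with log2 fold changes of -0.56 ± 0.29 and -0.07 ± 0.32. Of the sensitive strains, it had 2.22, 1.72 and 1.62 CPM in copper and 3.04, 2.65 and 5.95 CPM in control libraries of COR-018, and 0.482, 0.438 and 0.537 CPM in copper and 1.08, 1.02 and 0.562 CPM in control libraries of JUT-008. In AKA-018 it had 0.762, 0.988 and 1.23 CPM in copper and 1.22 and 2.004 CPM in control libraries. The copper libraries were lower than all controls in COR-018 and JUT-008 and overlapped in AKA-018. Over the sensitive strains *se* fell by 0.89 ± 0.20 on the log2 scale (adjusted p = 0.00572, edgeR). Its neighbour *GstO2*, which it overlaps on the opposite strand, had a log2 fold change of 0.09 ± 0.04 (adjusted p = 0.137).

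In tolerant strains none of the 35 genes tested passed (*GstD6* was too low for the test), against 1.53% of 11602 genes, while 11 had an unadjusted p-value below 0.05 in edgeR and DESeq2 called 3. The share of all genes below the unadjusted threshold was not counted. *GstD5* (1.22 ± 0.46), *GstD4* (1.12 ± 0.29) and *GstD2* (1.08 ± 0.37) had the largest log2 fold changes, with adjusted p-values of 0.237, 0.0525 and 0.174. *GstE10* was at -0.62 ± 0.17 (adjusted p = 0.0561). Single libraries changed this count. Without MUN-020 control 1, which had 11.9 CPM of *GstD2* against 3.02 CPM in the other control of the strain, *GstD2* and *GstD4* passed. *GstD4* passed without MUN-020 copper 3, and *GstE10* passed without GIM-012 copper 1, GIM-012 control 1 or GIM-012 control 4, each left out in turn.

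**Figure D3:**
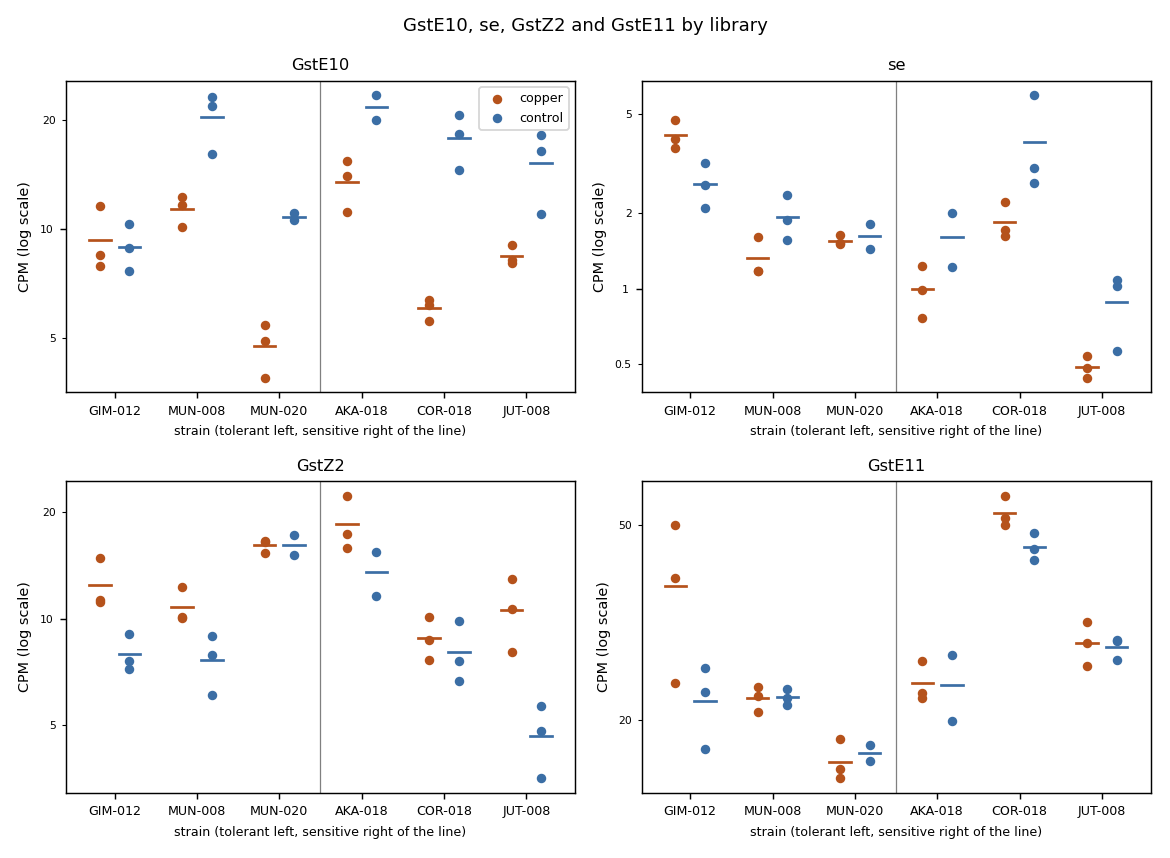
CPM of *GstE10*, *se*, *GstZ2* and *GstE11* in each library on a log axis, for copper (left of each pair) and control (right), with a bar at each mean and a line between tolerant and sensitive strains. *GstE10* lies lower in copper than in control libraries in 5 of 6 strains, and in COR-018 it has 5.56 to 6.37 CPM in copper and 14.6 to 20.7 CPM in control libraries.

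Whether the response differed between the classes was tested with an interaction term, given as the response of tolerant minus that of sensitive strains. It passed for 2 of 36 genes at an adjusted p-value below 0.05, against 4.13% of all genes. For *GstD6* the difference was -2.04 ± 0.60 (adjusted p = 0.0491) and for *se* it was 0.94 ± 0.28 (adjusted p = 0.0491). Both were close to the threshold, and each call held in 9 of 34 fits that left out 1 library. Without GIM-012, without COR-018, or without the 9 libraries with male transcripts, neither gene passed. Nor did either pass with counts summed per strain and treatment. In 2 alternatives the count stayed at 2 but with 1 gene exchanged. Without AKA-018 *se* and *GstE12* passed and *GstD6* did not (-1.89, adjusted p = 0.0652), and DESeq2 called *se* and *GstE12* and gave *GstD6* no adjusted p-value. For *GstD2* (-1.24 ± 0.53, adjusted p = 0.179), *GstD5* (-1.69 ± 0.64, adjusted p = 0.124), *GstD4* (-0.46 ± 0.44, adjusted p = 0.558) and *GstE10* (0.45 ± 0.23, adjusted p = 0.253) no difference between the classes was shown.

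The strains were then taken one by one. The response to copper differed among the 6 strains for 15 of the 36 genes (F test over strains, edgeR, adjusted p-value below 0.05), which is to be read against 30.1% of all genes. These were *GstD2*, *GstD4*, *GstD5*, *GstD6* and *GstD9* of the Delta class, *GstE2*, *GstE5*, *GstE6*, *GstE10*, *GstE11* and *GstE12* of the Epsilon class, and *GstO3*, *se*, *GstT4* and *GstZ2*. Leaving out 1 library gave between 7 and 17 such genes, and the 7 came without GIM-012 control 1 and without GIM-012 control 4. In at least 1 strain, 19 of the 36 genes were differentially expressed with copper, against 21.8% of all genes.

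**Figure D4:**
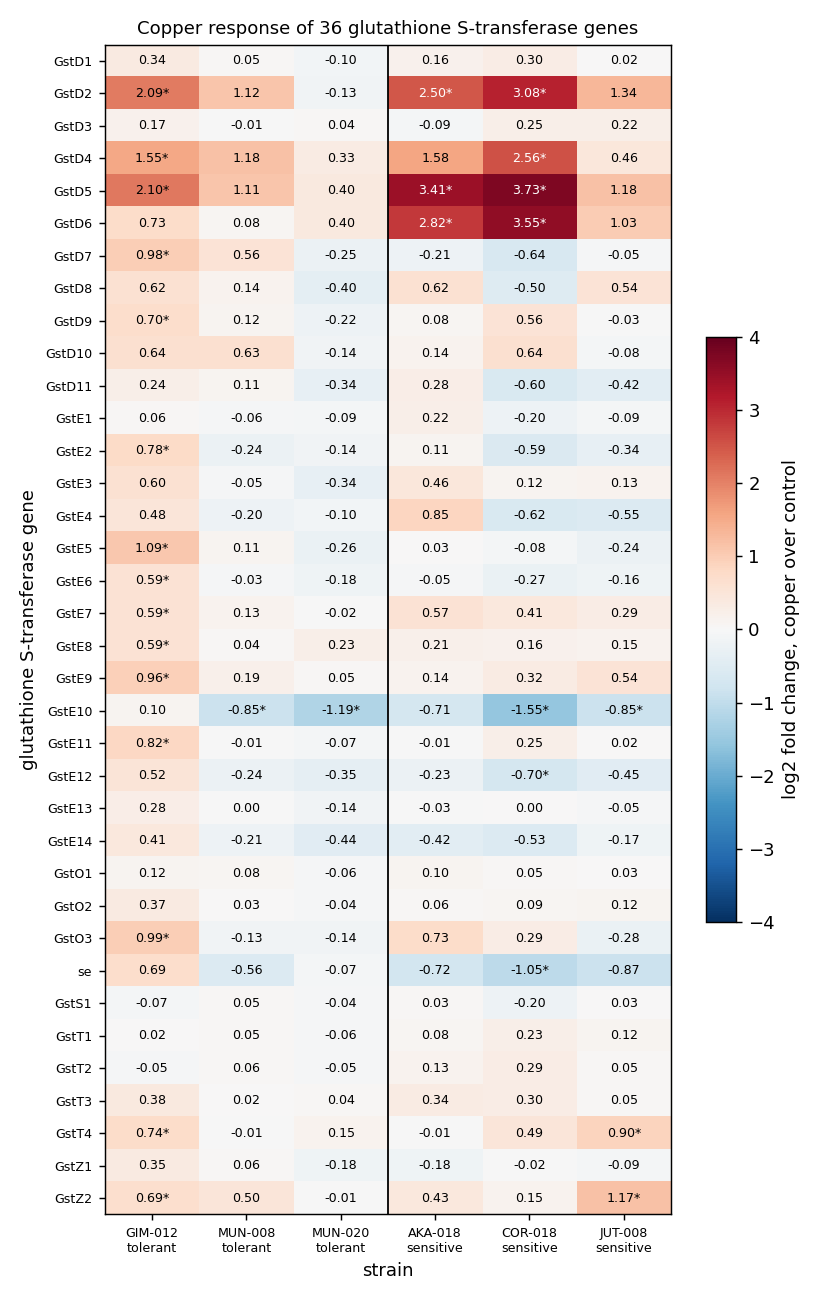
Log2 fold change of copper over control for the 36 genes in each strain, with tolerant strains on the left and sensitive strains on the right, and an asterisk where the gene was differentially expressed in that strain. COR-018 and AKA-018 have the largest values, up to 3.73 for *GstD5* in COR-018, and the column of GIM-012 is positive for 34 of 36 genes.

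COR-018 had the largest Delta fold changes. There 4 genes rose, where 2.27% of all genes rose, and 3 fell, where 8.55% of all genes fell. *GstD5* rose by 3.73 ± 0.66 on the log2 scale, with 45.8, 71.4 and 28.8 CPM in copper and 4.17, 3.55 and 3.35 CPM in control libraries, and *GstD6*, *GstD2* and *GstD4* by 3.55 ± 0.63, 3.08 ± 0.56 and 2.56 ± 0.41. *GstE10* (-1.55 ± 0.19), *se* (-1.05 ± 0.29) and *GstE12* (-0.70 ± 0.14) fell. All copper libraries of these 4 Delta genes were above all controls, and the 4 calls and that of *GstE10* held without each COR-018 library in turn. *se* did not pass without copper 3, copper 4 or control 4, nor *GstE12* without control 1. Summed male transcripts were at 0.0246 to 8.31 CPM in copper and 0.0678 to 21.5 CPM in control libraries of COR-018, with the highest value in control 4. Their part in this strain was not tested. Of 8 summed tissue marker lists, 6 were lower in every copper library than in every control of COR-018 (midgut, fat body, flight muscle, haemocyte, eggshell and yolk). Not every gene of these lists followed its sum. *fon* of the fat body list was at 166 to 172 CPM in copper and 94.9 to 131 CPM in control libraries, and *TpnC4* and *Yp3* overlapped. The other genes counted in these lists were lower in every copper library. The part of the tissue markers in these changes was not tested.

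In AKA-018 3 genes rose, *GstD5* (3.41 ± 0.79), *GstD6* (2.82 ± 0.73) and *GstD2* (2.50 ± 0.64), where 0.44% of all genes rose. *GstD2* had 17.3, 29.8 and 61.2 CPM in copper and 7.43 and 5.14 CPM in control libraries. Copper 4 was the highest copper library for 29 of the 36 genes, and the share for all genes was not counted. None of the 3 passed without AKA-018 copper 4, or without either of the 2 controls. Male transcripts separated the groups compared, at 0 to 0.0945 CPM in copper and 10.8 to 13.5 CPM in control libraries. Summed midgut markers were at 1752 to 2607 CPM in copper and 5124 to 6417 CPM in control libraries, and summed eggshell markers at 84.9 to 210 CPM in copper and 514 to 831 CPM in control libraries. The sums of Malpighian tubule and of yolk markers were also lower in every copper library than in every control. Of their genes *Irk3*, *Yp1* and *Yp2* were lower in every copper library, while *Uro*, *CapaR* and *Yp3* overlapped. Male content and treatment cannot be told apart in this strain, and the part of the tissue markers was not tested.

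In JUT-008 *GstZ2* (1.17 ± 0.21, adjusted p = 0.000296) and *GstT4* (0.90 ± 0.15, adjusted p = 0.000116) rose, where 1.94% of all genes rose, and *GstE10* fell by 0.85 ± 0.19 (adjusted p = 0.00288), where 5.18% of all genes fell. *GstT4*, a Theta gene, had 132, 111 and 139 CPM in copper and 68.6, 79.4 and 55.3 CPM in control libraries. *GstZ2* had 10.6, 8.06 and 13.0 CPM in copper and 4.80, 5.66 and 3.53 CPM in control libraries. Both genes were higher in every copper library than in every control. Summed male transcripts were at 0 to 8.66 CPM in copper and 0 to 21.9 CPM in control libraries of JUT-008, and their part was not tested. The sums of the same 6 tissue marker lists as in COR-018 were lower in every copper library than in every control, and their part was not tested. Within these lists *alphaTry*, *Lsp2*, *fon*, *NimC1* and *Yp3* overlapped between treatments. The Delta genes of this strain gave 1.34 ± 0.56 for *GstD2* (adjusted p = 0.155) and 1.03 ± 0.60 for *GstD6* (adjusted p = 0.345).

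In MUN-008 and MUN-020 *GstE10* alone passed. It fell by 0.85 ± 0.18 in MUN-008 (adjusted p = 0.0106), where 0.863% of all genes fell, and by 1.19 ± 0.21 in MUN-020 (adjusted p = 0.0032), where 0.583% of all genes fell. The call was lost without MUN-008 copper 4, MUN-008 control 2 or MUN-008 control 4, and without either control of MUN-020. In MUN-020 the log2 fold changes were -0.13 ± 0.59 for *GstD2*, 0.33 ± 0.50 for *GstD4* and 0.40 ± 0.67 for *GstD5*.

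In the fit of all libraries GIM-012 had the most genes of the family called. This order turned with each strain fitted alone, where 4 genes passed in GIM-012 and 6 in COR-018. The whole table turned likewise, from 1552 genes in GIM-012 and 1354 in COR-018 to 622 and 1173. In the fit of all libraries, 34 of the 36 genes had a positive log2 fold change in GIM-012. Their median was 0.59, against 0.12 over all genes, and 15 rose, where 9.26% of all genes rose. They were *GstD2*, *GstD4*, *GstD5*, *GstD7* and *GstD9*, 7 Epsilon genes (*GstE2*, *GstE5* to *GstE9* and *GstE11*), *GstO3*, *GstT4* and *GstZ2*. *GstD5* (2.10 ± 0.65) and *GstD2* (2.09 ± 0.54) led, followed by *GstD4* (1.55 ± 0.41) and *GstE5* (1.09 ± 0.18). *GstE5* had 21.0, 13.9 and 12.5 CPM in copper and 7.41, 8.61 and 6.82 CPM in control libraries, and *GstE9*, which rose by 0.96 ± 0.20, had 197, 138 and 128 CPM in copper and 81.4, 94.2 and 68.3 CPM in control libraries. In both genes every copper library lay above every control.

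GIM-012 copper 1 was the highest of the 3 copper libraries for 32 of the 36 genes, and the share for all genes was not counted. The summed level of the family was 3135 CPM there and 2124 to 2391 CPM in the other copper libraries, against 1787 to 2042 CPM in controls. The median log2 ratio of the 36 genes to their control means was 0.78 in copper 1, 0.45 in copper 2 and 0.17 in copper 4. Without copper 1 the log2 fold changes of the 15 genes stayed positive, but 5 of them passed, *GstD2*, *GstE2*, *GstE5*, *GstE9* and *GstT4*, with log2 fold changes of 0.68 to 1.55, while the other 10 were between 0.37 and 0.95. These 5 are fewer than the 7 of COR-018 with all libraries. Without control 4, 6 genes passed, and without control 1, 11. Summed female germline markers (2 of 4 counted) were at 680 to 991 CPM in copper and 1570 to 2384 CPM in control libraries of this strain. Summed yolk markers (3 of 3) were at 10573 to 14310 CPM in copper and 4946 to 9427 CPM in control libraries, so that 1 list was lower and 1 higher in every copper library, and the other 6 lists overlapped. Of the genes of the germline and yolk lists, *bam* and *Yp2* overlapped between treatments, while *osk*, *Yp1* and *Yp3* followed their sum. The part of the tissue markers in the response was not tested.

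**Figure D5:**
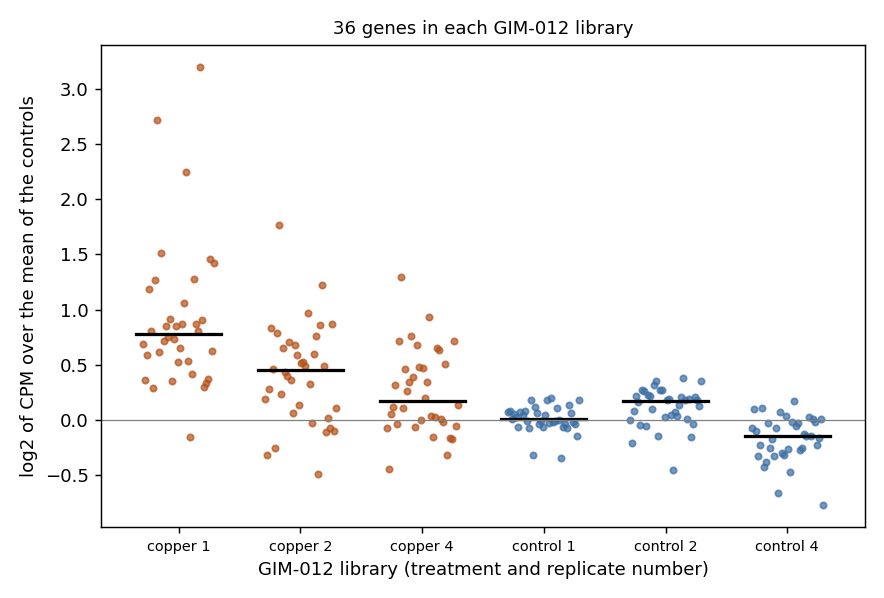
Log2 ratio of CPM to the mean of the 3 controls for each of the 36 genes (points) in each GIM-012 library, with copper libraries on the left and controls on the right and a bar at the median. The median is 0.78 in copper 1, 0.45 in copper 2 and 0.17 in copper 4, and between -0.14 and 0.17 in the controls.

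Some genes lay on opposite sides of their controls in different strains, while others lay above them in some strains and overlapped in the rest. *GstE12*, the second most abundant member per length in controls, had 351, 291 and 257 CPM in copper and 204, 249 and 191 CPM in control libraries of GIM-012, where it was higher by 0.52 ± 0.14 (adjusted p = 0.00822, under the fold threshold). In COR-018 it had 138, 128 and 145 CPM in copper and 274, 208 and 195 CPM in control libraries, and fell by 0.70 ± 0.14 (adjusted p = 0.000833). The copper libraries thus lay above all controls in GIM-012 and below all controls in COR-018, and also below them in MUN-020 and JUT-008. *GstE6*, the third in that order, had 214, 169 and 152 CPM in copper and 125, 137 and 105 CPM in control libraries of GIM-012, against 94.9, 82.8 and 92.3 CPM in copper and 114.6, 101 and 113 CPM in control libraries of COR-018. *GstE2* had 1.75, 1.70 and 1.77 CPM in copper and 0.832, 1.29 and 0.991 CPM in control libraries of GIM-012, and 1.28, 0.809 and 1.08 CPM in copper and 1.30, 1.79 and 1.75 CPM in control libraries of COR-018. For both genes, too, the copper libraries were above the controls in GIM-012 and below them in COR-018. *GstD8*, *GstE3*, *GstE4*, *GstE5* and *se* also lay above all controls in at least 1 strain and below them in at least 1. *GstO3* and *GstD9* lay below all controls in no strain. *GstO3* rose in GIM-012, with 120, 65.9 and 58.0 CPM in copper and 41.7, 49.1 and 35.2 CPM in control libraries, and in JUT-008 its libraries overlapped, with 29.0, 21.6 and 31.3 CPM in copper and 34.2, 38.6 and 26.3 CPM in control libraries. *GstD9* rose in GIM-012 by 0.70 ± 0.15 (adjusted p = 0.00122), and in COR-018 it had 38.4, 33.8 and 36.3 CPM in copper and 24.7, 21.6 and 28.2 CPM in control libraries, a log2 fold change of 0.56 ± 0.14 (adjusted p = 0.00713) under the fold threshold.

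The summed level of the 36 genes, of which *GstD1* is the largest share, was 2550 ± 524 CPM in copper and 1931 ± 130 CPM in control libraries of GIM-012 (SD, n = 3 each), and 2439 ± 271 CPM in copper and 2190 ± 202 CPM in control libraries of AKA-018 (n = 3 and 2). COR-018 had 2261 ± 36.8 CPM in copper and 2044 ± 92.5 CPM in control libraries, and MUN-020 had 1880 ± 130 CPM in copper and 2009 ± 34.7 CPM in control libraries. MUN-008 and JUT-008 had 2124 ± 152 and 1894 ± 79.7 CPM in copper, against 2114 ± 89.1 CPM in MUN-008 controls and 1836 ± 120 CPM in JUT-008 controls. The copper libraries of GIM-012 and COR-018 were all above the controls of their strain. Those of MUN-020 were all below its controls, at 1732 to 1978 CPM against 1984 to 2033 CPM. In MUN-008, AKA-018 and JUT-008 copper and control libraries overlapped.

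Across strains, *GstE10* was differentially expressed in 4 strains, *GstD2* and *GstD5* in 3 each, and *GstD4*, *GstD6*, *GstT4* and *GstZ2* in 2 each. The remaining 12 passed in 1 strain. Of the 17 genes that passed in none, *GstE14* (noppera-bo), which acts in ecdysone synthesis, had log2 fold changes of -0.53 in COR-018 and 0.41 in GIM-012, and *GstO1*, *GstO2*, *GstS1* and *GstE13* had overlapping copper and control libraries in all 6 strains.

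Basal expression was compared in the 16 control libraries. Between the classes 1 of 35 genes passed, against 5.36% of 12217 genes. *GstE11* (FBgn0034354) was lower in tolerant strains, with 16.5 to 25.5 CPM (median 21.8) in tolerant controls and 19.9 to 48.1 CPM (median 29.0) in sensitive controls, and a log2 difference of -0.71 ± 0.17 (adjusted p = 0.0185, edgeR). The ranges overlap. The call was lost without COR-018 control 4 and without each of 4 strains, GIM-012, MUN-008, MUN-020 and COR-018, and COR-018 had the highest level, with 48.1, 42.4 and 44.7 CPM.

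Among strains the basal levels of 28 of 35 genes differed (F test, edgeR), against 81.7% of all genes. The mean of the highest strain was between 1.28 and 16.4 times that of the lowest over the 36 genes, with a median of 2.17. *GstE1* (FBgn0034335), which encodes an enzyme active on 4-hydroxynonenal, had the widest range. JUT-008 controls had 11.04, 10.4 and 7.31 CPM, against 63.9 to 164 CPM in the controls of the other strains, and JUT-008 copper libraries had 10.2, 7.45 and 9.29 CPM. JUT-008 lay apart from all other strains in both treatments. The difference among strains had an adjusted p of 2.55e-08. JUT-008 also had the lowest control means of *GstE2*, *GstE3*, *GstE7* and *GstE9*, which share the array with *GstE1*, at 0.928, 16.8, 19.2 and 28.7 CPM, whereas AKA-018 had the highest of these, at 5.67, 65.5, 40.9 and 119 CPM. *GstD2*, *GstD4*, *GstD10*, *GstD11*, *GstE4*, *GstO3* and *GstS1* did not pass among strains.

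Genes that work beside the family were followed as a list of 13, for glutathione synthesis and breakdown, for membrane-bound or GST-like proteins, for the *cnc* and *Keap1* regulators and for the export of conjugates. All 13 were in the table and 12 were tested over all strains, where none passed (edgeR) and 3 had an unadjusted p-value below 0.05. None passed in tolerant or in sensitive strains. *Gclm*, the modifier subunit of the enzyme that limits glutathione synthesis, was lower by less than the fold threshold, at 102 to 213 CPM in copper and 110 to 241 CPM in control libraries of sensitive strains, with a log2 fold change of -0.20 ± 0.05 over all strains (adjusted p = 0.00219). *cnc* and *Keap1* had log2 fold changes of 0.06 ± 0.09 (adjusted p = 0.714) and -0.07 ± 0.03 (adjusted p = 0.184). In single strains *Mgstl*, a membrane-bound transferase, fell by 0.64 ± 0.15 in MUN-020 (adjusted p = 0.0295), and *CG4829*, annotated to glutathione breakdown, fell by 0.61 ± 0.17 in JUT-008 (adjusted p = 0.0176). Both were higher in GIM-012, under the fold threshold, by 0.48 ± 0.13 (adjusted p = 0.00799) and 0.44 ± 0.16 (adjusted p = 0.0384, edgeR). The response differed among strains for 4 of the 12 genes tested (F test), against 30.1% of all genes. Basal levels differed for 8 of 11, against 81.7% of all genes.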

How the data were processed

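Raw counts per gene were used as deposited by the authors, who trimmed reads with TrimGalore 0.5.0 and Cutadapt 1.18, aligned them to dm6 with STAR 2.6 and counted them with featureCounts 1.6.2 in reverse-stranded mode, discarding reads with several positions or features. The 34 columns were matched to libraries by the sample labels. The name of the deposited counts can refer to a removal of males, and shares of all genes are shares of the genes left in them.

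Positions and exon lengths came from Ensembl release 115 of dm6. TMM normalisation, filterByExpr (strain and treatment as group) and quasi-likelihood tests used edgeR 4.0.16 in R 4.3.3, and adjustment ran over all genes tested. Models held strain and treatment (all strains, tolerant, sensitive), strain, treatment and the class-by-treatment interaction, a treatment effect in each strain from 1 fit of all libraries, class alone for basal expression, and F tests over strains. Genes were called at an adjusted p-value below 0.05 with a fold of more than 1.5. The interaction and F tests had no fold threshold. SEs were the log2 fold change over the root of F. The paper describes the libraries of a strain and treatment as biological replicates, each a group of females. The labels do not say whether they came from separate cultures, and p-values measure only the spread between these libraries.

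The members are a family taken by name, and they and the lists were chosen with earlier results of these data known. Values by library were printed for genes that passed over all strains, within a class, in the interaction or between classes, and others were named where they passed in strains. Libraries 1 to 4 were numbered by the labels, and same-numbered copper and control libraries did not deviate together (2 of 15 pairs with a correlation over 0.1, median -0.10). Replicates differed beyond counting error (chi-squared per degree of freedom 9.05 to 286 over 32 pairs). The scripts were tested on simulated data. Alternatives were DESeq2 1.42.0, RLE normalisation, other filters and fold thresholds, a replicate block, summed counts, each strain fitted alone, and leaving out libraries or strains. Promoter motifs and sequences were not analysed here.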

Additional observations from a re-analysis of the deposited data

Results flagged for a closer look

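For 2 genes the response to copper differed between the classes by the interaction test, which is 2 of 36 against 4.13% of all genes. The response of tolerant minus that of sensitive strains was -2.04 for *GstD6* (adjusted p = 0.0491) and 0.94 for *se* (adjusted p = 0.0491, edgeR's quasi-likelihood test), on the log2 scale. Each call was lost in 25 of 34 fits that left out 1 library. Neither gene passed without GIM-012 or without COR-018. Of the tolerant strains, GIM-012 alone had every copper library of *se* above every control. Without the 9 libraries with male transcripts the differences were -0.80 for *GstD6* and 0.71 for *se*. That fit holds no AKA-018 control and, of the COR-018 copper libraries, copper 4 alone. Male content and the loss of these libraries cannot be told apart in it.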

How the results depend on the processing

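The number of GST genes called and the values of the called genes were recomputed under each alternative. Of these 538 values, 400 kept their side of the threshold or, for counts, stayed within 1.5 times. None of the log2 fold changes among them reversed. Counts and F tests have no direction and could not reverse, and genes not called in the main fits were not followed. The cause was not tested where a count moved, except that a stricter or looser rule and fewer libraries do so by construction. Over all strains the count of 5 became 11 on adjusted p alone and 0 with summed counts. In sensitive strains 7 became 16 on adjusted p alone, 0 with summed counts, 4 without COR-018 and 2 without libraries with male transcripts, an alternative chosen after seeing the data. The share of all genes on adjusted p alone was not counted for either. In tolerant strains 0 became 3 in DESeq2, 2 with RLE normalisation, 1 without GIM-012 and 2 without MUN-020. For the interaction 2 became 0 with a filter of 1 count in a library, with summed counts, without GIM-012, without COR-018 and without libraries with male transcripts, 1 without MUN-008 or JUT-008, and 5 without MUN-020, and the 2 of DESeq2 and those without AKA-018 share 1 gene, *se*, with the 2 reported. With each strain fitted alone GIM-012 gave 4 in place of 15, MUN-008 0 in place of 1 and JUT-008 1 in place of 3. Over the whole table these fits gave 622 in place of 1552, 123 in place of 173 and 453 in place of 891. DESeq2 gave 5 in place of 3 in AKA-018. Between classes without copper 1 became 0 with a log2 threshold of 1, with summed counts and without GIM-012, MUN-008, MUN-020 or COR-018, 4 without AKA-018, and 2 without JUT-008.

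With a replicate block (strain by replicate number) the counts were 1 in tolerant and 4 in sensitive strains, 0 for the interaction, 2 for the difference among strains, and 0 in each of MUN-008, MUN-020 and AKA-018. The numbers do not pair the libraries, so this is a check only.

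Leaving out 1 library gave 5 to 5 genes over all strains, 0 to 2 in tolerant and 6 to 7 in sensitive strains, 0 to 2 for the interaction, 7 to 17 for the difference among strains, 5 to 16 in GIM-012, 0 to 1 in MUN-008, 0 to 1 in MUN-020, 0 to 4 in AKA-018, 6 to 8 in COR-018, 3 to 5 in JUT-008, and without copper 0 to 1 between classes and 26 to 29 among strains. *GstD4* and *GstD6* rest on few reads, which limits their precision.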
